A study of Mus musculus with 6 samples.

Results

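The genes described here are 10 of the fibroblast growth factor (FGF) system, the ligand genes Fgf1, Fgf2, Fgf7, Fgf9, Fgf10 and Fgf18 and the receptor genes Fgfr1, Fgfr2, Fgfr3 and Fgfr4, out of 19938 genes measured in mouse enterospheres. They form a list of gene names drawn up with earlier results of these data known, and each of the 10 had 1 probe set carrying its single gene symbol. Enterospheres are free-floating spheres grown for their neural progenitor cells, and they can hold other cell types. They were grown here from the gut muscle of newborn (P0) C57BL/6 mice, for which the labels name no genetic change. All 6 samples, each made from the pooled guts of 3 animals, were first grown for 4 days and then for 5 more in medium that received FGF at 20 ng/mL and epidermal growth factor at 10 ng/mL each day. The labels do not say which FGF was used. The spheres were then washed and moved to a differentiation medium for which the labels list neither factor. After 1 day in it, group T3 (3 samples) received triiodothyronine (T3), the form of thyroid hormone that binds nuclear receptors, at a labelled dose of 100 nm, read here as nM, for 1 day. The control group (3 samples) stayed untreated in the same medium. Total RNA of each sample was hybridised to 1 array.

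FGFs are secreted proteins that bind receptor tyrosine kinases together with heparan sulfate chains. Receptor activation passes through docking proteins to a kinase cascade, which switches on early genes and also the Sprouty proteins and dual-specificity phosphatases that damp the signal. In the developing gut, mesenchymal cells make Fgf7 and Fgf10, which signal to epithelium, and FGF in the medium is used to keep neural progenitors dividing.

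Fgf7 and Fgf10 are close relatives that share a receptor, the IIIb splice form of Fgfr2, and Fgf10 was called with T3 whereas Fgf7 was not. The 250 bases before the annotated start site of each gene are shown as a description, from RefSeq on GRCm38.p6, both on the plus strand. The Fgf7 stretch is chr2:126034408-126034657 and the Fgf10 stretch is chr13:118714449-118714698. Capitals mark AGGTCA, the 6-base core motif to which thyroid hormone receptors and several other nuclear receptors bind, searched on both strands.
Fgf7: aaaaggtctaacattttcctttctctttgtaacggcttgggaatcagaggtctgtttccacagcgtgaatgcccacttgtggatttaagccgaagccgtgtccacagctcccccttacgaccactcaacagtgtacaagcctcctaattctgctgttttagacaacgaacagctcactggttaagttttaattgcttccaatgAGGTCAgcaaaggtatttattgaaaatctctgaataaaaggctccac
Fgf10: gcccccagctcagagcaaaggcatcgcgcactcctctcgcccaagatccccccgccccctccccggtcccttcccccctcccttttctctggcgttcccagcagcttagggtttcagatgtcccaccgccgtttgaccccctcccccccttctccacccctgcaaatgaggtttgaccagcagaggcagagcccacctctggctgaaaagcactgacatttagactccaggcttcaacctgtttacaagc
The Fgf7 stretch held the motif once, beginning 47 bases before the start site, and the Fgf10 stretch did not hold these letters. Of 32851 promoter stretches of the same length in the table, 14.0% held the motif, and 5 held its direct repeat with 4 bases between (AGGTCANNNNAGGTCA), which contains AGGTCA. Among the members, 8 were in the table with 9 stretches, and that of Fgf7 was the only 1 with AGGTCA. Fgf1 and Fgfr1 were not matched. Only these 250 bases and only these exact letters were searched, so sites elsewhere or with other letters were not looked for. Whether the motif bears on the response of either gene to T3 was not tested.

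Of the 10 genes, Fgf10 alone passed the test, and it was higher with T3. Calls were made by limma, where the p after Benjamini-Hochberg adjustment over all 19938 genes had to be under 0.05. By that rule 618 genes were called, 3.10%, of which 454 were higher with T3 (2.28%) and 164 lower (0.823%). Fgf2, Fgf10 and Fgfr2, 3 of the 10 genes, had T3 and control values that did not overlap, as 19.5% of all genes did. An unadjusted p under 0.05 was reached by 2 of the 10, Fgf10 and Fgf2, and by 13.7% of all genes (limma). The median log2 change was 0.08 over the 10 genes and 0.0088 over all genes. Hr and Klf9, genes known to respond to thyroid hormone, had log2 changes of 1.92 and 1.86 and Thrb, a thyroid hormone receptor gene, one of 1.30, each called. Dio3, the deiodinase gene, had one of 0.54 and was not called (adjusted p = 0.120). Within groups, control replicates 2 and 3 stood farthest apart (SD of their difference over all genes 0.243, against 0.137 to 0.201 for the other pairs).

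**Figure D1:**
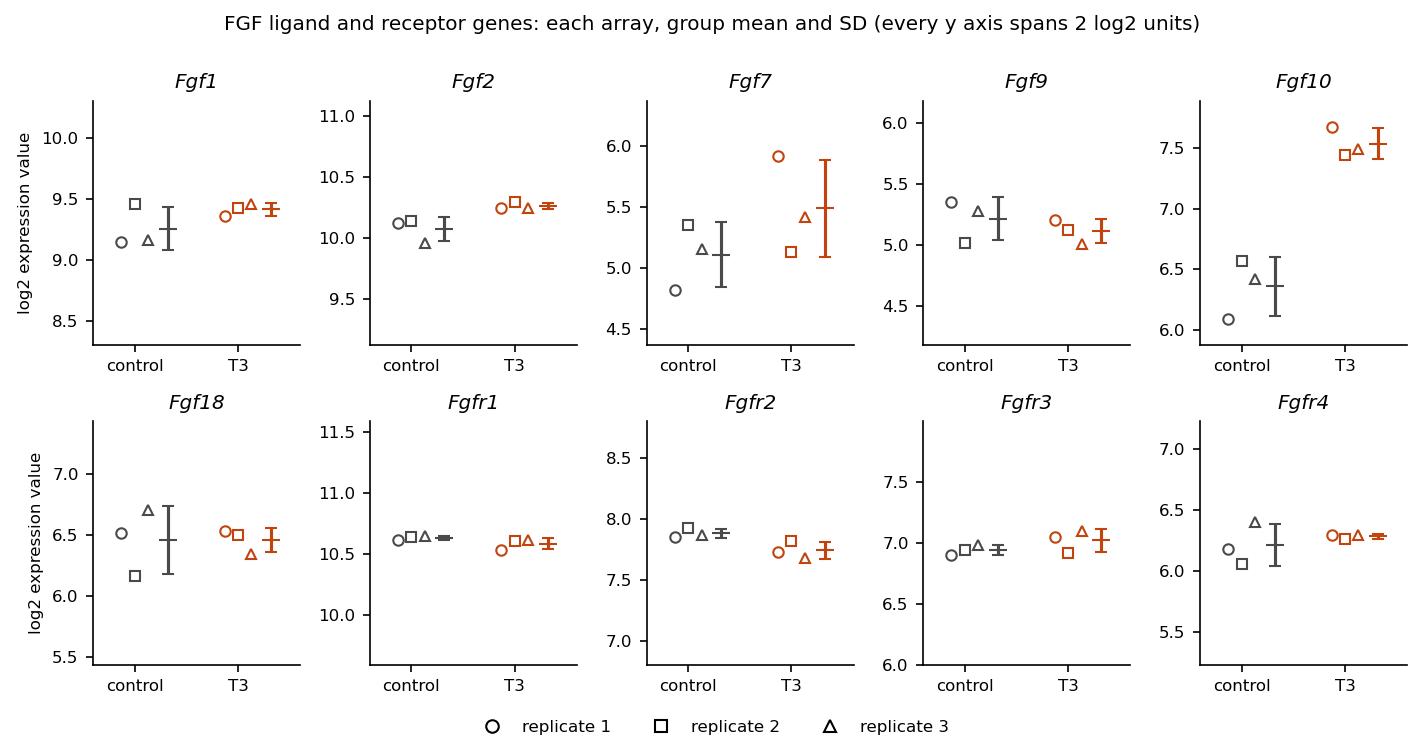
Log2 expression value (y axis) of the 6 ligand and 4 receptor genes in each array of the control and T3 groups (x axis), with the group mean and SD (n = 3) beside the points. Fgf10 is the gene whose groups stand apart by the widest gap, 0.87 on the log2 scale; levels in different panels belong to different probe sets and cannot be ranked against each other.

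Fgf10 encodes a mesenchymal ligand that acts on neighbouring cells and is required for budding of organs such as the lung. Its probe set, 10407350, had log2 values of 6.09, 6.57 and 6.42 in control replicates 1 to 3 and of 7.67, 7.44 and 7.49 in T3 replicates 1 to 3. Every T3 array lay above every control array, and the gap of 0.87 between the groups was wider than the range within either group (0.48 in controls and 0.23 with T3). The mean rose from 6.36 ± 0.24 (SD, n = 3) to 7.53 ± 0.12 (SD, n = 3), a log2 change of 1.17 ± 0.12 (SE), or 2.26-fold, with a 95% confidence interval of 1.85-fold to 2.75-fold and adjusted p = 0.00271 (limma). By size this rise ranked 41 among the 454 genes called higher. It passed without any 1 array, with log2 changes of 1.04 to 1.28 and adjusted p (limma) of 0.00249 to 0.0149. The control value lay at percentile 43.0 of genes, and since the values carry no detection calls it is not known how far above background it was. In whole spheres, more cells that make a transcript and more of it per cell cannot be told apart.

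Fgf7, a ligand of the same receptor form, varied more within groups. The log2 values were 4.83, 5.35 and 5.16 in the controls and 5.92, 5.14 and 5.42 with T3. The groups overlapped, because T3 replicate 2 lay below control replicates 2 and 3, and T3 replicate 1 was the highest. The log2 change of 0.38 ± 0.20 (SE) was not called (adjusted p = 0.484, limma), and its 95% interval ran from 0.948-fold to 1.78-fold. The signal was dim, at percentile 25.6 of genes in controls.

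Fgf1 and Fgf2 encode acidic and basic FGF, which lack a classical secretion signal; Fgf1 can bind all the FGF receptors. Fgf2 had log2 values of 10.12, 10.14 and 9.96 in controls and 10.25, 10.29 and 10.25 with T3. Its T3 arrays all lay above its control arrays, by a gap of 0.11, but the log2 change of 0.19 ± 0.07 (SE) did not pass (adjusted p = 0.301, limma). Its 95% interval ran from 1.01-fold to 1.28-fold. Fgf1 had values of 9.15, 9.46 and 9.16 in controls and 9.36, 9.43 and 9.46 with T3. Control replicate 2 lay as high as the T3 arrays, and the log2 change of 0.16 ± 0.10 (SE) was not called (adjusted p = 0.576).

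Fgf9 and Fgf18, ligands that favour the IIIc forms of the receptors and act in mesenchyme and developing skeleton, gave no call. Fgf9 stood at 5.35, 5.01 and 5.28 in controls and at 5.21, 5.12 and 5.01 with T3, a log2 change of -0.10 ± 0.10 (SE, adjusted p = 0.797). Its values overlapped widely, and they lay in the dim part of the range, at percentile 27.1 of genes. Fgf18 stood at 6.52, 6.16 and 6.71 in controls and at 6.53, 6.50 and 6.35 with T3. All its T3 values lay inside the control range, and the log2 change of -0.0039 ± 0.13 (SE, adjusted p = 0.997) changed sign under a renewed quantile normalization and under median centring. The interval for Fgf18 ran from 0.808-fold to 1.23-fold.

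None of the 4 receptor genes was called, and their log2 changes lay between -0.14 and 0.08. Fgfr1, a receptor gene of neural progenitors and many mesenchymal cells, had log2 values of 10.61, 10.64 and 10.65 in controls and 10.53, 10.61 and 10.62 with T3. The 6 values lay close together, the groups overlapped, and the log2 change was -0.05 ± 0.07 (SE, adjusted p = 0.866). The 95% interval ran from 0.872-fold to 1.07-fold. Its signal stood at percentile 95.3 of genes in controls. Fgfr2, whose IIIb form binds Fgf7 and Fgf10, had values of 7.85, 7.93 and 7.87 in controls and 7.73, 7.82 and 7.68 with T3. Every T3 array lay below every control array, by a gap of only 0.03, and the log2 change of -0.14 ± 0.07 (SE) did not pass (adjusted p = 0.461, limma). A value per gene does not tell the IIIb from the IIIc splice form.

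Fgfr3, a receptor gene of glial progenitors and cartilage, had log2 values of 6.90, 6.94 and 6.98 in controls and 7.05, 6.92 and 7.10 with T3. T3 replicate 2 lay within the controls, and the log2 change was 0.08 ± 0.07 (SE, adjusted p = 0.775). Fgfr4, the receptor that works with beta-Klotho in liver, had values of 6.18, 6.06 and 6.40 in controls and 6.30, 6.26 and 6.30 with T3. Its T3 values all lay inside the control range. The log2 change of 0.07 ± 0.09 (SE, adjusted p = 0.854) was at -0.0035 without control replicate 2.

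**Figure D2:**
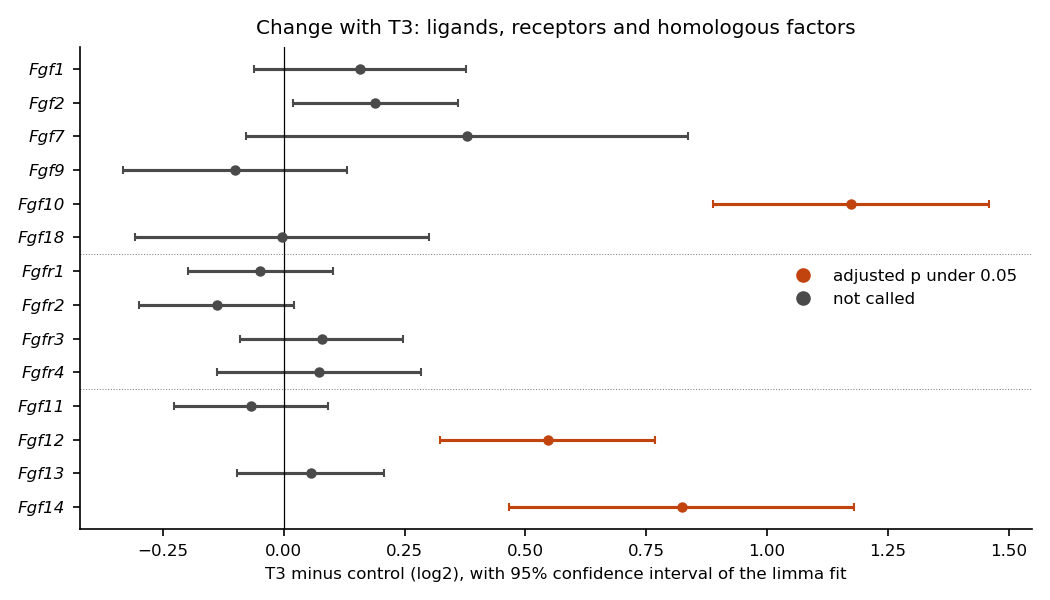
Difference in log2 expression value, T3 minus control (x axis), with the 95% confidence interval of the limma fit, for each ligand gene, receptor gene and FGF homologous factor gene (y axis); orange marks an adjusted p under 0.05. Fgf10, Fgf12 and Fgf14 are called, and the intervals of the 4 receptor genes all include 0.

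Set against the other 9 members, the log2 change of Fgf10 exceeded that of Fgf7 by 0.79, the smallest excess, and that of Fgfr2 by 1.31, the largest. Fgf10 was taken for this comparison because it was the called member, so these differences are a description without a test.

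The 3 genes whose values followed Fgf10 most closely over the 6 arrays were Scgn, which encodes the calcium-binding protein secretagogin (Pearson r = 0.9992), Cacna1c, an L-type calcium channel gene (r = 0.998), and Plxna2, a semaphorin receptor gene (r = 0.998). The 6 arrays form 2 groups, so these r values largely follow the group difference and describe the arrays only. The log2 changes were 0.39 for Scgn and 0.48 for Cacna1c, both called (adjusted p = 0.0273 and 0.0134, limma), and 0.18 for Plxna2 (adjusted p = 0.230). Of the 6 fits without 1 array, Scgn passed in 1 and Cacna1c in 3. The Scgn signal was dim, at percentile 15.2 of genes in controls.

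Across the whole Fgf gene family, 3 of 22 measured genes were called, all higher with T3 (13.6%, beside 2.28% of all genes called higher). Besides Fgf10 these were Fgf12 and Fgf14, which belong to the 4 FGF homologous factors, proteins that stay inside the cell and bind voltage-gated sodium channels. Fgf14 had log2 values of 6.32, 6.87 and 6.21 in controls and 7.22, 7.30 and 7.36 with T3, a rise of 0.82 ± 0.16 (SE) on the log2 scale or 1.77-fold (adjusted p = 0.0291). Fgf12 had values of 6.18, 6.49 and 6.17 in controls and 6.88, 6.81 and 6.79 with T3, a rise of 0.55 ± 0.10 (SE) on the log2 scale or 1.46-fold (adjusted p = 0.0231). In both genes control replicate 2 was the control nearest to the T3 arrays. Both calls passed without control replicate 2 (adjusted p = 0.00132 for Fgf14 and 0.00499 for Fgf12) and were lost without any other array (up to 0.139 and 0.119).
Fgf11 and Fgf13 had log2 changes of -0.07 and 0.06, neither called. Of the 12 other secreted FGF genes none was called and none had an unadjusted p under 0.05 (limma), with log2 changes from -0.20 to 0.15. The smallest p belonged to Fgf5 (-0.12), Fgf6 (0.15) and Fgf4 (-0.20). Of these 3, Fgf5 stood at percentile 82.6 of genes in controls and the others at or below percentile 40.3.

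**Figure D3:**
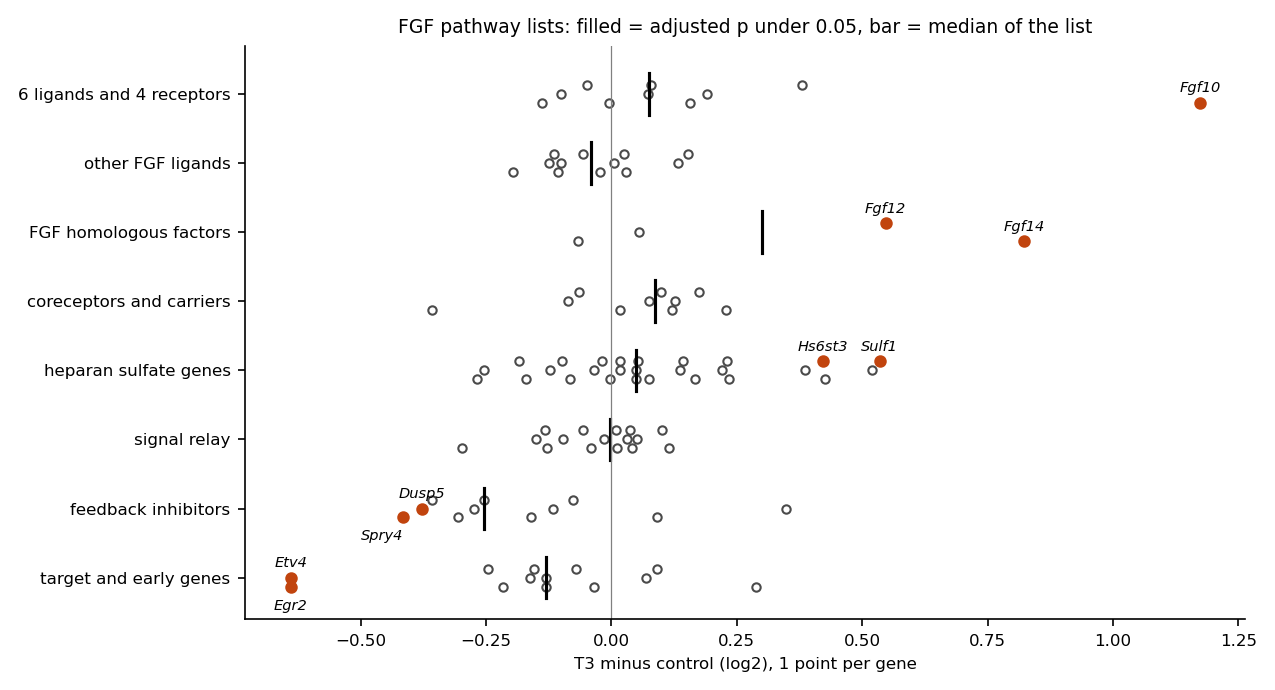
Difference in log2 expression value, T3 minus control (x axis), of every measured gene of the FGF lists (y axis), 1 point per gene, with filled points for an adjusted p under 0.05 and a bar at the list's median. The median lies at -0.25 for the feedback inhibitors and at 0.0088 over all genes.

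Genes of FGF coreceptors and of heparan sulfate and its enzymes were examined next, and the 2 called were both genes of enzymes that modify heparan sulfate. Of 10 genes of coreceptors, the decoy receptor Fgfrl1 and carriers, none was called. An unadjusted p under 0.05 (limma) was reached by 2 of these 10, beside 13.7% of all genes. Flrt2 and Flrt3, membrane proteins that can bind FGF receptors, had log2 changes of -0.36 (adjusted p = 0.121) and 0.18 (adjusted p = 0.309), and Ncam1, a neural adhesion molecule, had one of 0.12 (adjusted p = 0.504). Of 27 measured genes of heparan sulfate proteoglycans and their enzymes, 2 were called, both higher (7.41%, beside 2.28% of all genes called higher). The median log2 change of the 27 was 0.05. An unadjusted p under 0.05 (limma) was reached by 9 of them, 7 higher and 2 lower, beside 13.7% of all genes. Ndst1 was not analysed here.
Hs6st3, which adds 6-O sulfate to heparan sulfate, had log2 values of 8.14, 8.20 and 8.21 in controls and 8.72, 8.59 and 8.51 with T3, a rise of 1.34-fold (adjusted p = 0.0262). Sulf1, which removes such sulfates outside the cell, had values of 5.68, 5.71 and 5.70 in controls and 5.97, 6.27 and 6.45 with T3, a rise of 1.45-fold (adjusted p = 0.0481). These members act in opposite ways on the same sulfate groups. Their T3 values were more spread than their control values, and each call passed in 1 of the 6 fits without 1 array, Hs6st3 without control replicate 2 (adjusted p = 0.0477) and Sulf1 without T3 replicate 1 (0.0138), with adjusted p up to 0.135 and 0.188 in the others.

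No gene of the signal relay was called. The median log2 change of 16 measured genes of docking proteins, kinases and their partners was -0.0027. An unadjusted p under 0.05 (limma) was reached by 1 of them, beside 13.7% of all genes. That gene was Map2k1, which encodes the kinase MEK1, with a log2 change of -0.30 (adjusted p = 0.0678). It was followed by Nras at -0.13 and the docking protein gene Gab1 at -0.15 (adjusted p = 0.462 and 0.502).

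Among the genes that damp FGF signalling, 2 of 11 fell, none rose and 9 were not called (18.2%, beside 0.823% of all genes called lower). The list's median was -0.25, and 9 of the 11 had a log2 change below 0. An unadjusted p under 0.05 (limma) was reached by 7 of the 11, 1 higher and 6 lower, beside 13.7% of all genes. Spry4, a Sprouty inhibitor of receptor tyrosine kinase signalling, had log2 values of 10.37, 10.50 and 10.50 in controls and 10.06, 10.00 and 10.06 with T3, and it fell by 0.41 ± 0.07 (SE) on the log2 scale (adjusted p = 0.0191). Dusp5, a nuclear phosphatase of ERK, had values of 7.91, 8.01 and 8.03 in controls and 7.48, 7.63 and 7.71 with T3, and it fell by 0.38 ± 0.08 (SE) on the log2 scale (adjusted p = 0.0467).
In both genes every T3 array lay below every control array. The call of Dusp5 was lost without any 1 array (adjusted p = 0.0818 to 0.142) and that of Spry4 without any but T3 replicate 1 or control replicate 2 (up to 0.0927). Il17rd, Dusp4, Dusp6 and Spry2 had log2 changes of -0.36, -0.27, -0.25 and -0.31 that did not pass (adjusted p = 0.0995, 0.193, 0.199 and 0.310), and Spry3 had one of 0.35 (0.230).

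Of 13 transcription factor and early genes known to follow FGF and ERK activity, 2 fell, none rose and 11 were not called (15.4%, beside 0.823%). Etv4, an ETS factor that FGF signalling induces in many embryonic tissues, had log2 values of 6.88, 6.84 and 7.12 in controls and 6.15, 6.20 and 6.58 with T3. It fell by 0.64 ± 0.13 (SE) on the log2 scale (adjusted p = 0.0348). Egr2, an early growth response gene also known from Schwann cells, had values of 9.15, 9.23 and 9.30 in controls and 8.37, 8.67 and 8.73 with T3. It fell by 0.64 ± 0.10 (SE) on the log2 scale (adjusted p = 0.0144).
The groups did not overlap in either gene. Egr2 lost its call without control replicate 1 (adjusted p = 0.0567), and Etv4 without control replicate 1 or 3 or T3 replicate 1 or 2 (up to 0.133). Over these 13 genes the median change was -0.13, with 3 changes above 0 and 10 below. An unadjusted p under 0.05 (limma) was reached by 4 of them, 1 higher and 3 lower, beside 13.7% of all genes. In 6 of the 13 the groups did not overlap (19.5% of all genes), and 3 of these were higher with T3 and 3 lower. The related ETS genes Etv5 and Etv1 had log2 changes of -0.25 (adjusted p = 0.206) and 0.07 (0.777), and Fos and Egr1 had -0.03 (0.970) and -0.22 (0.528).

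**Figure D4:**
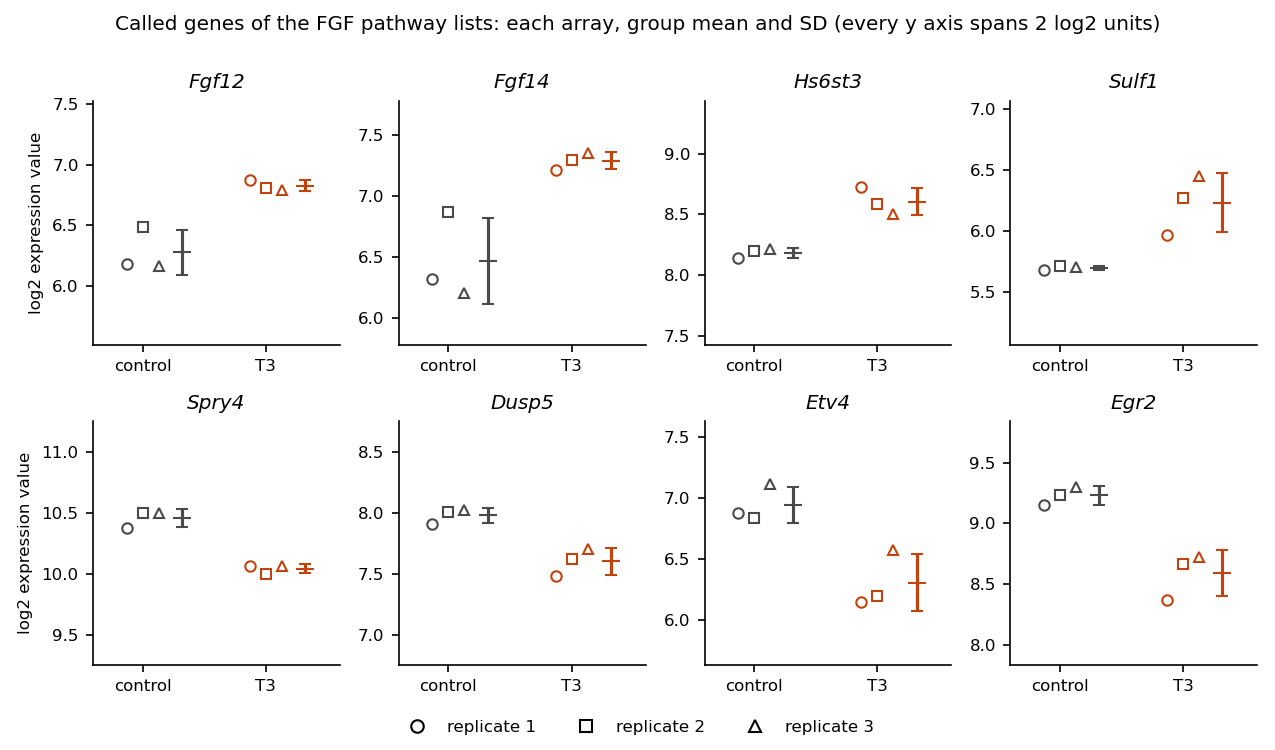
Log2 expression value (y axis) in each array of the control and T3 groups (x axis) for the 8 called genes of the FGF lists, with the group mean and SD (n = 3). Fgf12, Fgf14, Hs6st3 and Sulf1 are higher in all T3 arrays than in any control array, and Spry4, Dusp5, Etv4 and Egr2 are lower.

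Markers of the cell types that spheres from gut muscle can hold were measured beside these genes. Levels of different probe sets cannot be ranked and the values carry no detection calls, so no cell type was read from them as present or absent. Over all genes, 2.28% were called higher and 0.823% lower. Of 10 fibroblast and mesenchyme markers, Thy1 was higher (log2 change 1.24) and Twist1 lower (-0.49), 10% each, and 8 were not called. The median of these 10 was -0.04. Their summed linear signal was 18558 to 19860 in controls and 18945 to 19675 with T3, so the groups overlapped. Of 10 neuron markers, 3 were higher (30%), Prph (0.94), Nos1 (0.50) and Snap25 (0.33). The other 7 were not called, among them Tubb3 at 0.03, Elavl4 at 0.02 and Elavl3 at -0.13. The median of the 10 was 0.14. Their summed signal was 12200 to 14044 in controls and 15004 to 16022 with T3, without overlap. Bright probe sets weigh most in such a sum. Here these were Stmn2 (control mean 11.63, T3 mean 11.88, not called), Nos1 (11.09 and 11.59) and Snap25 (10.91 and 11.25). The higher sum therefore does not stand for the whole list. Of 8 smooth muscle markers 2 were higher, Myh11 (0.60) and Myl9 (0.50), and 2 lower, Tagln (-0.72) and Acta2 (-0.38), 25% each. In 7 of the 8 the groups did not overlap, 4 higher and 3 lower, beside 19.5% of all genes. The sums of the 8 overlapped (2728 to 3023 in controls and 2730 to 2918 with T3). Acta2 had the brightest probe set of this list (control mean 10.14, T3 mean 9.76) and weighed most in that sum. The overlap of the sums therefore does not stand for each gene. Of 8 endothelial markers 1 was higher (12.5%), Plvap at 0.42, and 2 were lower (25%), Egfl7 at -0.70 and Kdr at -0.41. The other 5 were not called but had log2 changes above 0, so the median was 0.14, whereas the summed signal was lower with T3 (869 to 970 in controls and 727 to 835 with T3, without overlap). Egfl7 had the brightest probe set of this list (control mean 8.95, T3 mean 8.25) and weighed most in that sum. The lower sum therefore does not stand for the whole list. None of 7 progenitor and glia markers, 7 epithelial, 5 mesothelial and 7 macrophage and leukocyte markers was called. At an unadjusted p under 0.05 (limma) these lists held 1, 0, 1 and 0 genes, beside 13.7% of all genes. Of the called markers named here, Thy1, Prph, Tagln and Egfl7 passed in all 6 fits without 1 array. Kdr passed in 3 of these fits, Plvap in 2, Twist1, Nos1 and Myl9 in 1 each, and Snap25, Acta2 and Myh11 in 0. No marker is listed at 0, since log2 values of this kind have no zero point. The part of these marker differences in the values of the FGF genes was not tested.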

How the data were processed

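Total RNA from 6 enterosphere samples, 3 with T3 and 3 controls, was measured on 1 array each. The authors deposited log2 expression values for 35556 probe sets, with RMA and Partek 6.5 named in the submitters' processing notes. Their settings, the array build and detection calls were not given in the sources used here. As usually run, RMA makes the arrays' distributions alike, so that a shift shared by most genes is lost, and background on the arrays shrinks differences of dim genes. The number of arrays limits the precision.

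Probe sets were named through the platform annotation: 21789 had 1 gene symbol, 1621 had several and 12146 were not named. The single-symbol probe set of highest mean over the 6 arrays stood for a gene (999 genes had more than 1), leaving 19938. The difference between T3 and control was fitted for every gene by limma 3.58.1 (lmFit, eBayes; R 4.3.3), two-sided and without a filter. Data were simulated for this comparison in 20 runs with 200 of 19938 genes changed and independent normal noise, alike in all arrays. Changes of 0.5, 1 and 1.5 on the log2 scale were recovered in 53.6%, 91.5% and 98.4% of cases. Of the simulated calls 3.88% were false. Within groups the real arrays stood unequally far apart, so this does not give the false share of the 618 calls.

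Groups and replicate numbers came from the sample labels. Nothing in them says whether samples of a group were separate cultures beyond the 3 mice each, so p-values reflect only the spread between these 6 samples. No 2 arrays were duplicates (SD of the difference at least 0.137 within groups). The members and lists were chosen with earlier results of these data known. Named were all 10 members, every called gene of each FGF list or else its 3 of smallest p, 4 thyroid hormone check genes, 3 genes most like Fgf10 and up to 2 of each marker list. Il17rd, Dusp4, Dusp6, Spry2, Spry3, Etv5, Etv1, Fos, Egr1, Fgf11, Fgf13, Snap25, Stmn2, Tubb3, Elavl3, Elavl4 and Plvap were named after their values were seen. Acta2 and Myh11 were also named in that way.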

Additional observations from a re-analysis of the deposited data

How the results depend on the processing

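The Fgf10 call held in all 15 alternatives that tested it, with log2 changes of 1.04 to 1.35; the fit without the dimmest 50% of genes left Fgf10 out, so 0 members were called there. With array quality weights 3548 genes and 3 members were called, Fgf1 (0.26, adjusted p = 0.0210) and Fgf9 (-0.24, adjusted p = 0.0481) besides Fgf10, and testing every probe set on its own called 132 genes. Fgf18 turned to 0.0164 (renewed quantile normalization) and 0.0259 (median centring) and lay between -0.16 and 0.12 without 1 array, and Fgfr4 lay between -0.0035 and 0.17. Without 1 array the total was 191 to 640 genes, and the lists held 0 to 2 homologous factors, 0 to 3 heparan sulfate genes, 0 to 2 feedback inhibitors and 0 to 2 target genes.

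Array quality weights called 3548 of all 19938 genes. In that fit 2 of 12 other ligands, 2 of 10 coreceptors or carriers and 1 of 16 relay genes were called. It also called 12 of 27 heparan sulfate genes, 6 of 11 feedback inhibitors and 5 of 13 target genes. Testing every probe set on its own called 0 homologous factors, 0 heparan sulfate genes, 0 feedback inhibitors and 0 target genes. Without the dimmest 25% of genes 4 heparan sulfate genes and 1 relay gene were called, beside 724 of all 14953 genes. Without the dimmest 50% 1 relay gene, 1 target gene and 0 homologous factors were called, beside 745 of all 9969 genes. That last filter left Fgf12, Fgf14 and Etv4 out of the test. Trend and robust fitting called 6 heparan sulfate genes and 1 relay gene, beside 876 of all 19938 genes. Centring on the 75th percentile called 1 heparan sulfate gene, beside 584 of all genes. Centring on the median called 1 feedback inhibitor, beside 670 of all genes. Of all calls 73.5% were higher, 81.5% after median centring and 67.6% after 75th percentile centring. The causes of the other moves were not tested.

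With the replicate number as a block, Fgf10 passed (adjusted p = 0.00995, limma). That fit called 0 heparan sulfate genes and 1 feedback inhibitor, beside 472 of all 19938 genes. The numbers were not taken as a pairing: deviations of same-numbered arrays from their group means correlated at 0.18, 0.02 and 0.0002, and arrays 2 and 3 did not correlate best with their own number. Array signal over background, which is unknown, limits what can be said of the dim genes Fgf7, Fgf9 and Scgn.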
